A study of Danio rerio with 11 samples.

Results

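The genes described here encode cullin-RING ubiquitin ligase parts and the anaphase-promoting complex (APC/C), and comprise 109 of the 32520 Ensembl gene identifiers counted in every library. They were set by a rule on the gene symbol, which was made with earlier results of these data known. The rule took every F-box gene named FBXO, FBXW or FBXL except fbxo5, the cullins, SKP1 and SKP2, the DCAF genes, the APC/C subunits and the APC/C activators. Of these, 43 were FBXO, 9 FBXW and 19 FBXL genes, 2 were SKP1 and SKP2, 9 were cullins, 10 DCAFs, 14 APC/C subunits and 3 APC/C activators. The symbols FBXO40, FBXO41, FBXL14 and CUL3 were each held by 2 identifiers, which are therefore named by identifier. The gene fbxl13 had 0 counts in all 11 libraries, 6 members stayed under 10 counts in every library, and 84 had 10 or more counts in every library.

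RNA immunoprecipitation (RIP), which sequences the RNA held by a protein captured on beads, was performed on zebrafish embryos at the 8-cell stage. There were 3 libraries of eIF4E1b RIP, 2 of eIF4E1c RIP and 3 of the input of each line, the input being RNA of the whole lysate. The eIF4E1b embryos carried tg(actb2:3xflag-sfGFP-eIF4E1b) and the eIF4E1c embryos tg(actb2:3xflag-sfGFP-eIF4E1c), so that both lines expressed a GFP-tagged cap-binding protein, captured with anti-GFP beads, from the broadly active actb2 promoter. No library from an untagged embryo was analysed here, the sources used here describe no removal of the embryos' own eIF4E proteins, and the RIP and input libraries were made with different kits, so that precipitation and kit cannot be told apart when RIP is set against input.

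Ubiquitin ligases mark proteins for degradation and thereby set the pace of the cell cycle, which runs on maternal mRNA in the cleaving embryo. In SCF ligases the scaffold CUL1 is joined through the adaptor SKP1 to an interchangeable F-box protein, which picks the substrate, while in CUL4 ligases DDB1 takes the adaptor's place and DCAF proteins pick the substrate. The APC/C is a large multi-subunit ligase that, with its activator CDC20 or FZR1 (Cdh1), removes cyclins and securin so that cells can leave mitosis.

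The libraries held between 6943631 and 13993294 counts. The eIF4E1c RIP replicate 1 library stood apart, with counts for 15114 genes and for 96 members, against 17520 genes and 103 members in eIF4E1c RIP replicate 2 and at least 18480 genes and 102 members in the other libraries. The members summed to 6622 to 8348 CPM (counts scaled to the library's total) in eIF4E1b RIP, 5920 to 7207 in eIF4E1c RIP, 7219 to 7630 in eIF4E1b input and 7350 to 7825 in eIF4E1c input. All 10 maternal and germ line markers were present in every group, at 2254 to 3668 summed CPM over the 11 libraries, and the 7 matched markers of later tissues summed to 0.637 to 5.33. Levels below are counts normalized for library size with DESeq2, and a difference was called where the adjusted p of DESeq2 was under 0.005.

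The first comparison asked which of these mRNAs were pulled down more by eIF4E1b than by eIF4E1c. In eIF4E1b RIP, the substrate receptor genes DCAF5, FBXO48, FBXO25 and fbxo44.9 and the APC/C subunit gene ANAPC7 were higher than in eIF4E1c RIP, and the substrate receptor gene DCAF15 was lower. Thus 5 of the 95 members tested (DESeq2 gave the other 14 no adjusted p) were higher in eIF4E1b RIP and 1 was lower, beside 3.44% of all 14127 tested genes called higher and 4.51% called lower. Counts this small put the members near the shares of all genes. The median log2 fold change was -0.043 over the members and -0.012 over all tested genes. None of the cullins, FBXL, FBXW, SKP1 and SKP2 genes or APC/C activators passed the DESeq2 test between the RIPs.

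**Figure D1:**
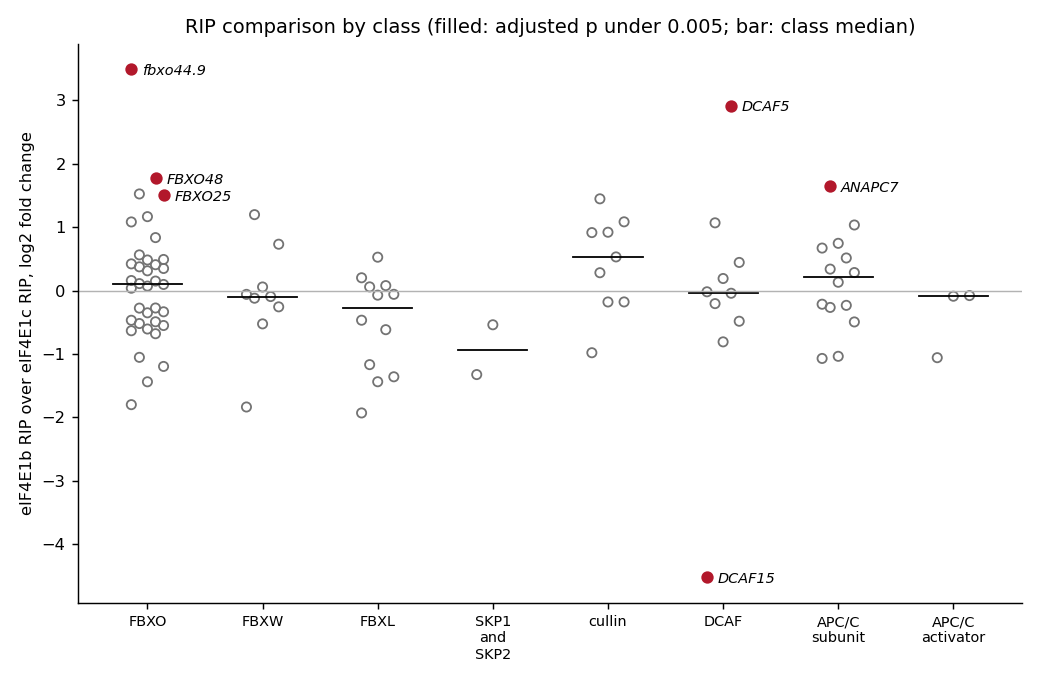
Log2 fold change of eIF4E1b RIP over eIF4E1c RIP (y axis) for the 95 members tested, by class (x axis). Filled points passed DESeq2 at an adjusted p under 0.005, open points did not, and bars are class medians. DCAF5 and DCAF15, both DCAFs, lie at 2.92 and -4.52.

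DCAF5, which in human cells is a substrate receptor of CUL4 ligases, had 3094, 2348 and 2599 normalized counts in the 3 eIF4E1b RIP libraries, against 246 and 432 in the 2 eIF4E1c RIP libraries. Its inputs held 546, 513 and 501 in eIF4E1b embryos, against 677, 473 and 525 in eIF4E1c embryos. The RIP groups did not overlap while the input groups did, and the RIP difference was 2.92 ± 0.42 on the log2 scale (SE, DESeq2 adjusted p = 2.54e-09). In eIF4E1b embryos the RIP level lay above the input level (log2 2.34 ± 0.22, DESeq2 adjusted p = 7.22e-26), and in eIF4E1c embryos the same difference was -0.71 ± 0.40 (adjusted p = 0.129).

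DCAF15, the human CUL4 receptor that aryl sulfonamide drugs redirect to the splicing factor RBM39, showed the opposite pattern. It had 17.3, 7.14 and 6.39 normalized counts in eIF4E1b RIP, against 312 and 146 in eIF4E1c RIP. Its inputs held 121, 131 and 102 in eIF4E1b embryos, against 131, 152 and 192 in eIF4E1c embryos. All 3 eIF4E1b RIP libraries lay below every other library, with a RIP difference of -4.52 ± 0.71 (SE, DESeq2 adjusted p = 4.24e-08), and eIF4E1b RIP was also lower than its input, with a log2 difference of -3.53 ± 0.48 (adjusted p = 7.95e-13). The calls of DCAF5 and DCAF15 between the RIPs held when each of the 5 RIP libraries was left out in turn, although without either eIF4E1c RIP library that group is a single library, assumed to vary like the other group. By contrast, edgeR's quasi-likelihood test gave adjusted p-values of 0.00653 for DCAF5 and 0.0088 for DCAF15, above the threshold of 0.005.

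FBXO48, an F-box gene whose human protein has been linked to the turnover of active AMPK, was among the 5 members with the highest counts in eIF4E1b RIP. It had 4972, 4183 and 4817 normalized counts in eIF4E1b RIP, against 1486 and 1132 in eIF4E1c RIP. The inputs held 81.5, 59.6 and 66.1 in eIF4E1b embryos, against 59.9, 49.9 and 64.3 in eIF4E1c embryos. Every RIP library of either line thus lay far above every input library, and the eIF4E1b RIP libraries lay above the eIF4E1c RIP libraries, by 1.77 ± 0.38 on the log2 scale (SE, DESeq2 adjusted p = 9.92e-05). That call was lost without eIF4E1b RIP replicate 3 (adjusted p = 0.00536) and with edgeR (adjusted p = 0.0203).

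ANAPC7, which encodes a subunit of the tetratricopeptide arm of the APC/C, had 902, 1129.7 and 1125 normalized counts in eIF4E1b RIP, against 339.9 and 306 in eIF4E1c RIP. The inputs held 552, 577 and 558 in eIF4E1b embryos, against 583, 578 and 673 in eIF4E1c embryos. The input levels thus lay between those of the RIPs, and the RIP difference was 1.64 ± 0.39 (SE, DESeq2 adjusted p = 0.000717). FBXO25, a close relative of the muscle F-box protein FBXO32 (atrogin-1), had 1173, 1019 and 1371 in eIF4E1b RIP, against 363 and 438 in eIF4E1c RIP, without overlap, and a difference of 1.50 ± 0.40 (SE, DESeq2 adjusted p = 0.00242). The ANAPC7 call was lost without eIF4E1b RIP replicate 2 (adjusted p = 0.0349) or replicate 3 (0.0246), and the FBXO25 call when any single RIP library other than eIF4E1c RIP replicate 2 was left out (adjusted p = 0.0161 to 0.055). Both calls were also lost with total counts as size factors (adjusted p = 0.00639 for ANAPC7 and 0.0267 for FBXO25), with the replicate block (0.0249 and 0.0522) and with edgeR (0.0212 and 0.0296). Between the RIPs the block joins libraries of different lines by their number only and is no pairing.

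The gene fbxo44.9 belongs to a group of near copies, related to the sugar-binding F-box proteins of mammals. In the RefSeq annotation of another assembly, GRCz12tu, 9 genes numbered fbxo44 or fbxo6 lie on chromosome 23 with 2 other protein-coding genes among them. The handling of reads with several matches was not given in the sources used here, so counts of single copies are uncertain. In fbxo44.9 the libraries of the eIF4E1b line held more counts in both kinds of library: 72.7, 65.3 and 61.8 in eIF4E1b RIP against 8.55 and 3.71 in eIF4E1c RIP, and 42.0, 25.1 and 31.9 in eIF4E1b input against 15.6, 9.50 and 3.43 in eIF4E1c input. Neither pair of groups overlapped. The RIP difference was 3.49 ± 0.89 (SE, DESeq2 adjusted p = 0.0016) and the input difference 1.84 ± 0.62 (adjusted p = 0.0512). The RIP call was lost when any single eIF4E1b RIP library was left out (adjusted p = 0.0362 to 0.0434) or without eIF4E1c RIP replicate 2 (log2 2.89). It was also lost with edgeR (adjusted p = 0.0468) and with the replicate block in DESeq2 (0.0498). In the RIP to input ratio tested below, fbxo44.9 was not called.

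A second gene of that cluster, fbxo44.10, which was named after its values had been seen, was split by line in the same way. It had 26.3, 13.3 and 17.0 normalized counts in eIF4E1b RIP and 0 in both eIF4E1c RIP libraries, and 5.65, 6.28 and 6.99 in eIF4E1b input against 0, 0.791 and 0 in eIF4E1c input. Taking 3 counts per library as the limit that a count of 0 allows, its mean in eIF4E1b RIP was 4.1-fold that limit in eIF4E1c RIP. The spread of the eIF4E1b RIP libraries is not part of that value, which is therefore no lower bound. DESeq2 gave fbxo44.10 no adjusted p. Of the 10 numbered fbxo44 and fbxo6 genes, 7 could be tested between the RIPs, and fbxo44.9 was the only one called. Of all tested genes 3.44% were called higher and 4.51% lower in eIF4E1b RIP.

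**Figure D2:**
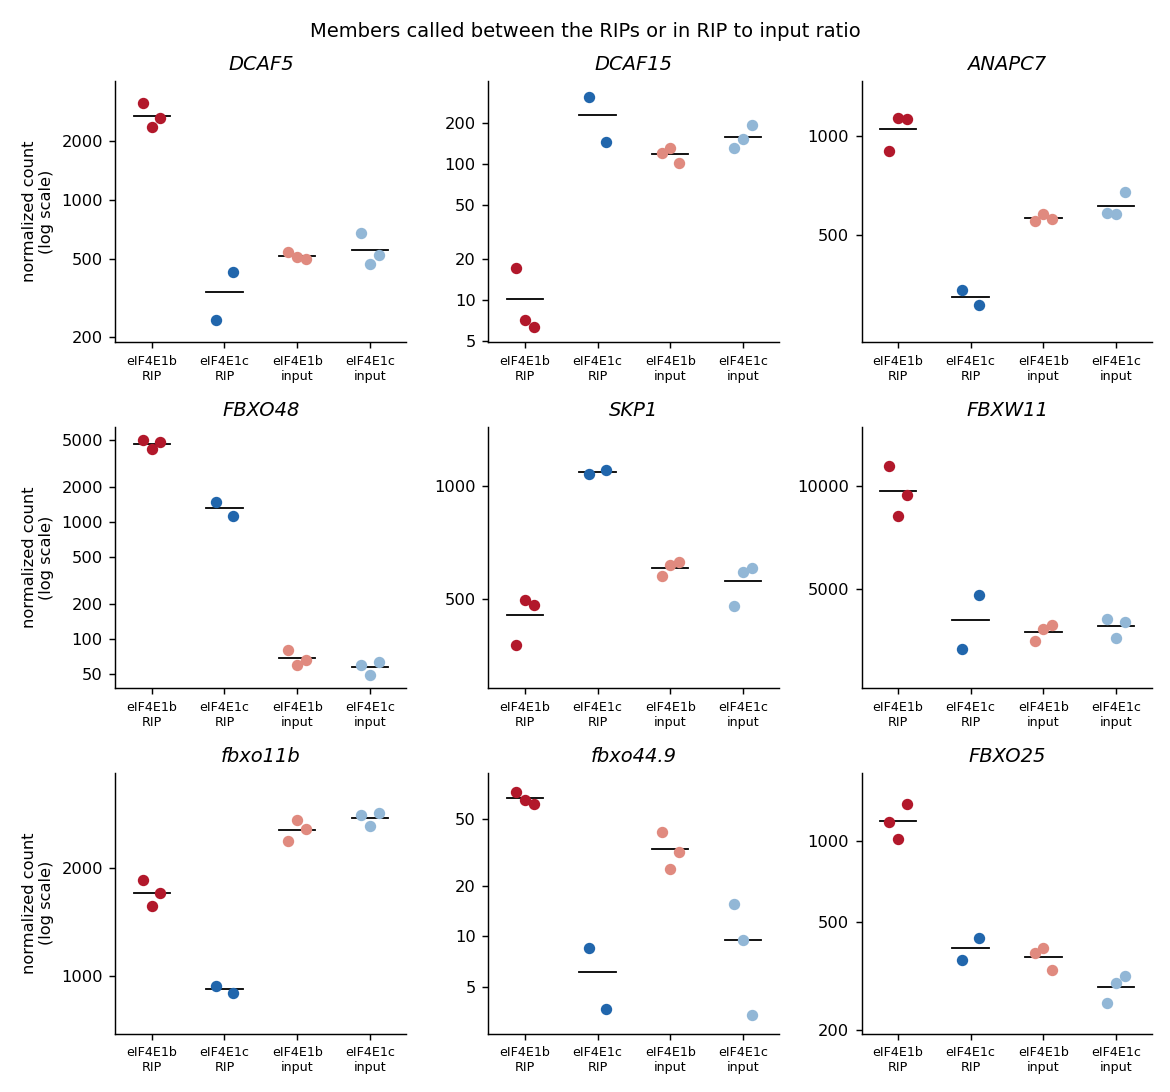
Normalized counts (y axis, log scale) of the 9 members called between the RIPs or in the RIP to input ratio, with 1 point per library and the group mean as a bar, in RIP and then input, with the eIF4E1b line left of the eIF4E1c line (x axis). DCAF5 and DCAF15 in eIF4E1b RIP and FBXO48 in both RIPs lie far from their inputs, while the lines do not overlap for fbxo44.9 in either kind of library.

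In some members the RIPs did not overlap but the difference did not pass the threshold. This occurred in both directions, and its share over the members or all genes was not counted. With 3 libraries against 2, lack of overlap alone is weak evidence. Higher in eIF4E1b RIP were, for example, CUL1 (log2 1.08 ± 0.43, DESeq2 adjusted p = 0.0566) and ANAPC2 (1.03 ± 0.45, 0.0904). The 3 genes that follow were lower. The adaptor gene SKP1 had 379, 499.6 and 482 normalized counts in eIF4E1b RIP, against 1073 and 1102 in eIF4E1c RIP, with no overlap and a log2 difference of -1.33 ± 0.39 (SE, DESeq2 adjusted p = 0.00825). The APC/C activator gene CDC20 had 960.1, 998 and 832 in eIF4E1b RIP, against 1441 and 2274 in eIF4E1c RIP, again without overlap (log2 -1.06 ± 0.40, adjusted p = 0.0481). Named after its values had been seen, fbxo43, whose product Emi2 holds the APC/C in check in the vertebrate egg, had 787, 1343 and 916 in eIF4E1b RIP, against 2559 and 1897 in eIF4E1c RIP (log2 -1.20 ± 0.42, adjusted p = 0.0308). In all, 30 of the 109 members had an unadjusted p under 0.05 in DESeq2 and 25 in edgeR, but with edgeR 0 of the 99 members tested were called. The shares of all genes with such an unadjusted p, or called with edgeR between the RIPs, were not counted. None of these counts, the 0 of edgeR included, is therefore read as a trait of the members.

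The pair of genes for β-TrCP2, the F-box protein FBXW11 that recognises phosphorylated degrons in β-catenin and in Emi1, had values of opposite sign. FBXW11 had 11502, 8189.6 and 9458 normalized counts in eIF4E1b RIP, against 3331 and 4794 in eIF4E1c RIP, a log2 difference of 1.20 ± 0.39 (SE, DESeq2 adjusted p = 0.0178). Its near copy fbxw11a had 421, 399.7 and 702 in eIF4E1b RIP, against 2828 and 628 in eIF4E1c RIP, a difference of -1.84 ± 0.59 (adjusted p = 0.0157). Neither was called, and the 2 eIF4E1c RIP libraries of fbxw11a lay far apart. How reads common to both copies were assigned was not given in the sources used here.

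Among the 9 cullins, log2 differences between the RIPs ran from -0.98 (CUL4A) to 1.45 (ENSDARG00000100108, one of the CUL3 identifiers), with a median of 0.53, and none was called. The scaffold gene CUL4B, one of the 5 members with the highest counts in eIF4E1b RIP, had 6646, 4812 and 5948 normalized counts in eIF4E1b RIP, against 3222 and 2675 in eIF4E1c RIP (log2 0.91 ± 0.38, DESeq2 adjusted p = 0.0725). The SCF scaffold gene cul1a, a near copy of CUL1, had 1342, 1270.4 and 2378 in eIF4E1b RIP, against 1499 and 1116 in eIF4E1c RIP, and these overlapped (0.28 ± 0.44, adjusted p = 0.718).

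The second comparison set the input RNA of the lines against each other, which shows how far the mRNA levels in the embryos already differed. None of the 98 members tested was called, beside 0.890% of all 15281 tested genes called higher in eIF4E1b input and 1.44% called lower. The median log2 difference over the members was -0.049. An unadjusted p under 0.05, whose share over all genes was not counted, was found with DESeq2 for 6 tested members with a positive and 11 with a negative difference. With edgeR these were 6 and 11. The smallest adjusted p-values belonged to FBXO9 (log2 0.65 ± 0.19, DESeq2 adjusted p = 0.0176) and fbxw10 (0.68 ± 0.20, 0.0186), both named after their values had been seen. CUL4A had 369.5, 701 and 695 normalized counts in eIF4E1b input, against 1038, 898 and 984 in eIF4E1c input, without overlap (log2 -0.72 ± 0.22, adjusted p = 0.0249).

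Each RIP was then compared with the input of its own line. Within the eIF4E1b line 34 of the 103 members tested were higher in RIP than in input and 27 lower, beside 23.0% of all 17123 tested genes called higher and 23.2% called lower. Within the eIF4E1c line 21 of the 96 members tested were higher and 16 lower, beside 17.2% of all 15131 tested genes called higher and 16.8% called lower. Under this scaling the members' share of higher calls was 33% in the eIF4E1b line. In the eIF4E1c line it was 21.9%, nearer that of all genes. Their shares of lower calls lay near those of all genes. The median log2 difference over the members was 0.61 in the eIF4E1b line, where it was 0.054 over all tested genes, and 0.11 in the eIF4E1c line, where it was 0.0039 over all tested genes. The split of the calls depended on the scaling: with total counts as size factors it was 23 higher and 33 lower in the eIF4E1b line and 18 higher and 18 lower in the eIF4E1c line. The median of all tested genes then moved by -0.437 in the eIF4E1b line and -0.214 in the eIF4E1c line. Under that scaling the members' median was 0.196 in the eIF4E1b line, beside -0.383 over all tested genes. In the eIF4E1c line it was -0.0873, beside -0.21, so the members' medians still lay above those of all genes. The lines have no library in common here, and 96 members were tested in both. Of these, 18 were higher in RIP in both and 12 lower in both. Another 31 were called in the eIF4E1b line alone, 7 in the eIF4E1c line alone, and none in opposite directions. The shares of all genes called in both lines or in a single line were not counted. The eIF4E1c line also had fewer RIP libraries. These joint counts are therefore not read as a trait of the members. With edgeR 34 members were higher and 22 lower in RIP in the eIF4E1b line, and 12 were higher and 5 lower in the eIF4E1c line. The shares of all genes called with edgeR or with total counts as size factors were not counted.

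**Figure D3:**
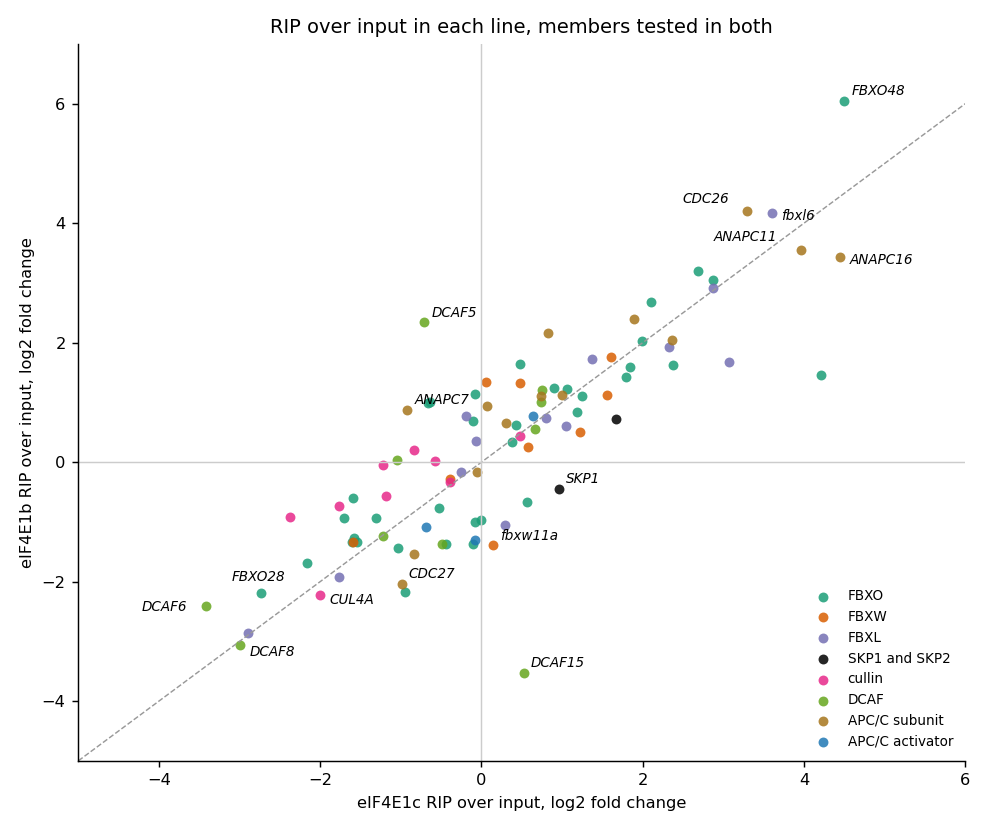
Log2 fold change of RIP over input in the eIF4E1b line (y axis) and in the eIF4E1c line (x axis) for the 96 members tested in both, coloured by class, with the line of equal change dashed. FBXO48 lies highest on both axes, at 6.05 and 4.50, and DCAF5 and DCAF15 lie far from the dashed line.

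Of the F-box genes among the members, SKP2 included, 21 of 66 tested were higher and 17 lower in eIF4E1b RIP than in its input. In eIF4E1c RIP 14 of 59 were higher and 9 lower than in its input. These stand beside 23.0% and 23.2% of all tested genes in the eIF4E1b line and 17.2% and 16.8% in the eIF4E1c line. With total counts as size factors the eIF4E1b split turned to 15 higher and 21 lower. FBXO48 had the widest difference of the members tested in both lines, 6.05 ± 0.24 on the log2 scale in the eIF4E1b line and 4.50 ± 0.35 in the eIF4E1c line (SE, DESeq2 adjusted p = 1.28e-141 and 5.34e-36).

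The leucine-rich repeat F-box gene fbxl6 had 1389, 1296 and 1239 normalized counts in eIF4E1b RIP, against 62.9, 71.4 and 78.5 in eIF4E1b input. In the eIF4E1c line it had 1372 and 808 in RIP, against 113, 88.6 and 69.4 in input. Every RIP library thus lay far above every input library, with log2 differences of 4.18 ± 0.24 and 3.60 ± 0.42 (SE, DESeq2 adjusted p = 2.18e-66 and 1.87e-16). The same held at a smaller size for fbxo44.1, at 3.20 ± 0.25 in the eIF4E1b line and 2.68 ± 0.31 in the eIF4E1c line. Of the 10 numbered fbxo44 and fbxo6 genes, 5 were higher in RIP in the eIF4E1b line, with none lower, beside 23.0% and 23.2% of all tested genes. SKP2, the F-box protein that recognises the CDK inhibitor p27 in mammals, was higher in RIP in both lines. Its log2 difference was 0.73 ± 0.21 in the eIF4E1b line and 1.67 ± 0.42 in the eIF4E1c line (DESeq2 adjusted p = 0.0013 and 0.00026). With total counts as size factors the eIF4E1b value was 0.30 (adjusted p = 0.213) and with edgeR the eIF4E1c call was lost (adjusted p = 0.00668). FBXO45, which works with the ligase MYCBP2 in mammalian neurons, was likewise higher in RIP in both lines, at 1.43 ± 0.30 and 1.79 ± 0.44 in the eIF4E1b and eIF4E1c lines, with the eIF4E1c call lost with edgeR (adjusted p = 0.00759).

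A few more F-box genes were named after their values had been seen. FBXL4, whose mammalian protein restrains mitophagy, had 1287, 1636 and 1619.5 normalized counts in eIF4E1b RIP, against 237, 179 and 174 in eIF4E1b input, and 1717 and 1068 in eIF4E1c RIP, against 219, 145 and 210.0 in eIF4E1c input. The sugar-binding F-box gene fbxo2 had 521, 1429.5 and 1408 in eIF4E1b RIP, against 115, 143 and 141 in eIF4E1b input, and 618 and 1366 in eIF4E1c RIP, against 149, 122 and 136 in eIF4E1c input. Both were higher in RIP than in input in each line, without overlap. FBXO4, which has been linked to cyclin D1 turnover in mammals, had a log2 difference of 1.46 ± 0.57 in the eIF4E1b line (DESeq2 adjusted p = 0.0191), was higher in RIP in the eIF4E1c line (4.21 ± 0.81, adjusted p = 1.54e-06, with edgeR 0.00753), and was spread from 3.17 to 20.4 over the eIF4E1c inputs.

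Other F-box mRNAs were lower in RIP than in input in both lines with DESeq2. FBXW7, whose mammalian protein degrades cyclin E and MYC, had 887, 1229 and 957 normalized counts in eIF4E1b RIP, against 2188, 2766 and 2626 in eIF4E1b input. In the eIF4E1c line it had 1467 and 628 in RIP, against 3469, 3005 and 3043 in input. No RIP library reached its inputs, with log2 differences of -1.33 ± 0.23 in the eIF4E1b line and -1.60 ± 0.42 in the eIF4E1c line (SE, DESeq2 adjusted p = 3.62e-08 and 0.000581). The F-box gene fbxl17, involved in quality control of BTB-domain dimers in mammals, was lower in RIP in both lines, with log2 differences of -2.86 ± 0.31 in the eIF4E1b line and -2.90 ± 0.54 in the eIF4E1c line. In the eIF4E1c line edgeR lost the calls of FBXW7 (adjusted p = 0.0136) and fbxl17 (0.00748). FBXO28 was lower in both lines with either tool, with log2 differences of -2.20 ± 0.27 and -2.74 ± 0.38 in the eIF4E1b and eIF4E1c lines.

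No cullin was higher in RIP than in input in either line. In the eIF4E1b line 2 of the 9 were lower, CUL4A and the CUL3 identifier ENSDARG00000100108, and in the eIF4E1c line 5 of the 9 were lower, CUL4A, CUL4B, CUL5, CUL1 and ENSDARG00000100108. Of all tested genes 23.0% were higher and 23.2% lower in the eIF4E1b line, and 17.2% and 16.8% in the eIF4E1c line. CUL4A had 103, 159 and 124 normalized counts in eIF4E1b RIP, against 369.5, 701 and 695 in eIF4E1b input, and 209.5 and 275 in eIF4E1c RIP, against 1038, 898 and 984 in eIF4E1c input. Its RIP levels were below the inputs in both lines, with log2 differences of -2.23 ± 0.32 and -2.00 ± 0.31 (SE, DESeq2 adjusted p = 1.99e-11 and 9.83e-10). CUL5, a scaffold that works with the elongins, had a log2 difference of -0.74 ± 0.29 in the eIF4E1b line (DESeq2 adjusted p = 0.0212) and was lower in RIP in the eIF4E1c line, at -1.77 ± 0.29 (adjusted p = 1.85e-08). CUL2 and cul5b were not called in any comparison. With edgeR the counts of lower cullins were 1 in the eIF4E1b line and 2 in the eIF4E1c line.

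The DCAF mRNAs were split in the eIF4E1b line, with 3 of 10 higher in RIP (DCAF5, DCAF12 and DCAF13) and 5 lower (DCAF6, DCAF8, DCAF10, DCAF11 and DCAF15). Under total count scaling 1 was higher and 5 lower. In the eIF4E1c line none was higher and DCAF6 and DCAF8 were lower. The shares of all tested genes called higher and lower were 23.0% and 23.2% in the eIF4E1b line and 17.2% and 16.8% in the eIF4E1c line. DCAF8 had 173, 96.9 and 112 normalized counts in eIF4E1b RIP, against 974, 1045 and 1127 in eIF4E1b input, and 209.5 and 134 in eIF4E1c RIP, against 1252, 1368 and 1434 in eIF4E1c input. Its log2 difference was -3.07 ± 0.28 in the eIF4E1b line and -2.99 ± 0.34 in the eIF4E1c line (SE, DESeq2 adjusted p = 1.76e-27 and 5.87e-17). For DCAF6 the differences were -2.40 ± 0.29 and -3.41 ± 0.67 in the eIF4E1b and eIF4E1c lines, and its eIF4E1c RIP libraries held 12.8 and 93.8 normalized counts, with edgeR giving an adjusted p of 0.0113 in that line.

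In the eIF4E1b line 10 of the 14 subunit genes were higher in RIP than in input and 2 were lower, beside the 23.0% and 23.2% of all tested genes, and in the eIF4E1c line 6 were higher and none lower, beside 17.2% and 16.8%. With total counts as size factors these counts were 7 and 2 in the eIF4E1b line and 5 and 2 in the eIF4E1c line. The 6 subunits higher in both lines were CDC26, ANAPC11, ANAPC16, ANAPC10, ANAPC13 and CDC16. The share of all genes higher in both lines was not counted, so this is not read as a trait of the APC/C. Kit and precipitation cannot be told apart here either. With edgeR 4 were higher in the eIF4E1c line, since the calls of CDC16 (adjusted p = 0.0113) and ANAPC13 (0.0124) were lost there.

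**Figure D4:**
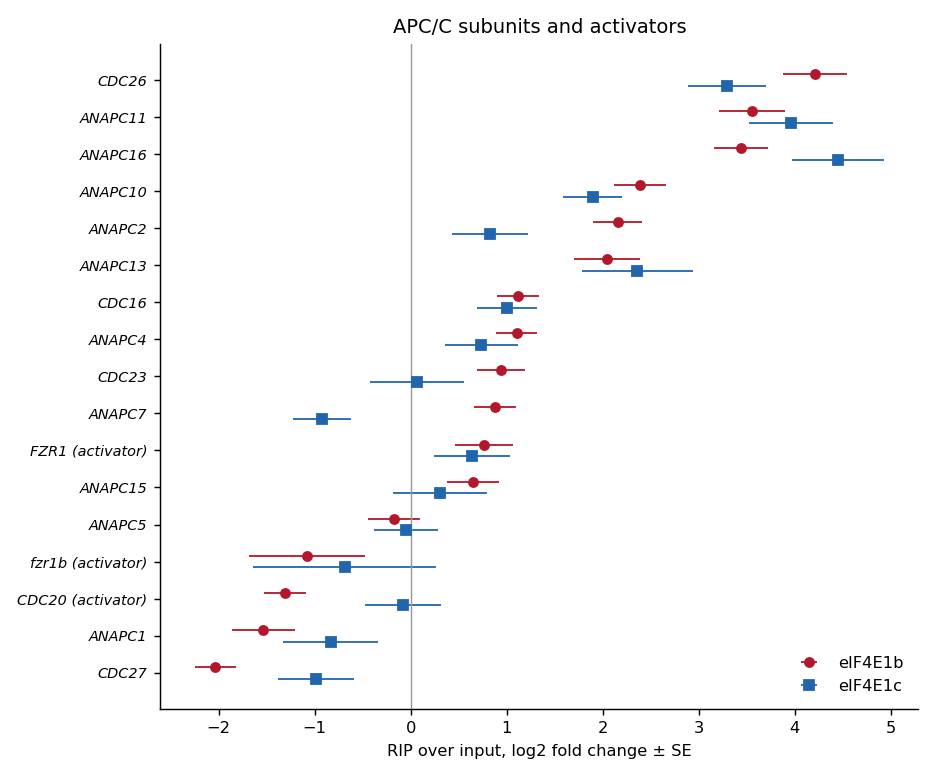
Log2 fold change of RIP over input with its SE (x axis) for the 14 APC/C subunit and 3 activator genes (y axis), in the eIF4E1b line (circles) and the eIF4E1c line (squares). CDC26, ANAPC11 and ANAPC16 lie above 3 in both lines, CDC27 and ANAPC1 lie below 0 in both, and ANAPC7 lies on opposite sides of 0.

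ANAPC11, the RING subunit that recruits the ubiquitin-conjugating enzyme, had 647, 1393 and 1765 normalized counts in eIF4E1b RIP, against 109.7, 87.1 and 120.5 in eIF4E1b input, and 1148 and 1766 in eIF4E1c RIP, against 57.5, 104 and 117 in eIF4E1c input. Every RIP library again lay far above every input library, and the log2 differences were 3.56 ± 0.34 in the eIF4E1b line and 3.96 ± 0.43 in the eIF4E1c line (SE, DESeq2 adjusted p = 5.29e-24 and 3.82e-18). ANAPC16, a small subunit, had 467, 440.5 and 489.8 in eIF4E1b RIP, against 42.8, 33.7 and 49.7 in eIF4E1b input, and 643 and 614 in eIF4E1c RIP, against 35.9, 15.0 and 36.0 in eIF4E1c input. CDC26, which holds the arm subunit CDC16 in its folded state, was higher in RIP by 4.21 ± 0.33 in the eIF4E1b line and by 3.30 ± 0.40 in the eIF4E1c line. ANAPC10, which helps the activator bind the destruction box of substrates, was higher by 2.39 ± 0.27 and 1.90 ± 0.31 in the eIF4E1b and eIF4E1c lines.

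Among the tetratricopeptide subunits the values ran in different directions. CDC27, which receives the activators, had 953, 757 and 933 normalized counts in eIF4E1b RIP, against 3318, 3807 and 3518 in eIF4E1b input, and 2411 and 1129.8 in eIF4E1c RIP, against 3671, 3337 and 3548 in eIF4E1c input. All RIP libraries lay below their inputs, with log2 differences of -2.04 ± 0.21 in the eIF4E1b line (DESeq2 adjusted p = 3.29e-20) and -0.99 ± 0.40 in the eIF4E1c line (adjusted p = 0.0287), where it passed the threshold with total counts as size factors. CDC16 was higher in RIP by 1.12 ± 0.22 in the eIF4E1b line and by 1.00 ± 0.31 in the eIF4E1c line (DESeq2 adjusted p = 7.99e-07 and 0.0043). CDC23 was higher in RIP in the eIF4E1b line, by 0.94 ± 0.25, and had 0.07 ± 0.49 in the eIF4E1c line. ANAPC7 was higher in RIP in the eIF4E1b line (0.88 ± 0.22, DESeq2 adjusted p = 0.000186) and had -0.92 ± 0.30 in the eIF4E1c line (adjusted p = 0.00601). Under total count scaling the eIF4E1b value was 0.45 (adjusted p = 0.0599) and the eIF4E1c value was -1.15 (0.00209).

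The scaffold subunit ANAPC1 was lower in eIF4E1b RIP than in its input, with a log2 difference of -1.54 ± 0.33 (SE, DESeq2 adjusted p = 1.12e-05), and the cullin-like subunit ANAPC2 was higher by 2.16 ± 0.26 (adjusted p = 5.09e-16). The platform subunit ANAPC4 was higher in RIP in the eIF4E1b line as well, with 1205, 1150.1 and 1182 normalized counts in RIP against 478, 598 and 539 in input (adjusted p = 1.44e-06), and had a log2 difference of 0.74 ± 0.38 in the eIF4E1c line. In the eIF4E1c line neither ANAPC1 nor ANAPC2 was called, at -0.83 ± 0.50 for ANAPC1 and 0.82 ± 0.40 for ANAPC2. Another platform subunit, ANAPC5, and the subunit ANAPC15, which takes part in releasing the spindle checkpoint, passed no test in either line. Of the activators, CDC20 was lower in RIP than in input in the eIF4E1b line (-1.31 ± 0.22, DESeq2 adjusted p = 9.44e-09) and had -0.08 ± 0.40 in the eIF4E1c line, while FZR1, at 0.77 ± 0.30 in the eIF4E1b line and 0.64 ± 0.39 in the eIF4E1c line, and fzr1b were not called.

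Finally, the RIP to input ratio of one line was tested against that of the other, as an interaction term in a fit of all 11 libraries, in which a kit effect of equal size in both lines would cancel. It rests on the same libraries as the comparisons above and is no separate evidence for them. Its fit took 1 spread per gene for RIP and input libraries, although inputs varied less between replicates. The p-values of the ratio can therefore understate the spread of the RIPs. For ANAPC7, for example, the SE was 0.30 in the ratio and 0.39 between the RIPs. The ratio was higher for eIF4E1b in 6 of the 95 members tested and higher for eIF4E1c in 2, beside 3.73% and 5.24% of all 14194 tested genes. The median log2 difference in ratio was 0.14 over the members and 0.076 over all tested genes. With total counts as size factors 3 members were called in each direction, and the median of all tested genes moved by -0.243. DCAF5 (3.07 ± 0.39, DESeq2 adjusted p = 3.8e-12), DCAF15 (-4.02 ± 0.64, 3.7e-08) and ANAPC7 (1.83 ± 0.30, 7.49e-08) were called here with DESeq2 and with edgeR, whose adjusted p-values were 0.000855, 0.00285 and 0.00278, and without each of the 11 libraries in turn, of which the fits without an eIF4E1c RIP library leave 1 in that group and take its spread from the other groups.

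SKP1 differed in ratio by -1.38 ± 0.31 (SE, DESeq2 adjusted p = 0.000198) and FBXO48 by 1.58 ± 0.36 (adjusted p = 0.000258), and both calls held without each library but not with edgeR (0.012 for SKP1 and 0.0081 for FBXO48). The SKP1 inputs held 578, 615 and 627 normalized counts in eIF4E1b embryos, against 482, 589.6 and 607 in eIF4E1c embryos. SKP1 thus lay below the inputs of its line in eIF4E1b RIP, with a log2 difference of -0.45 ± 0.23 (DESeq2 adjusted p = 0.0887), and above them in eIF4E1c RIP, with 0.96 ± 0.29 (adjusted p = 0.00302). With total counts as size factors the differences were -0.87 in the eIF4E1b line (adjusted p = 0.000274) and 0.74 in the eIF4E1c line (0.077), and edgeR did not call the eIF4E1c difference (0.0122).

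The ratio was also higher for eIF4E1b in FBXW11 (1.31 ± 0.33, DESeq2 adjusted p = 0.00105), fbxo11b (1.01 ± 0.25, 0.00108) and FBXO25 (1.19 ± 0.33, 0.00399). FBXW11 inputs held 3511, 3804 and 3918 normalized counts in eIF4E1b embryos, against 4086, 3591 and 4007 in eIF4E1c embryos, so that eIF4E1b RIP lay above its input and eIF4E1c RIP around it. The gene fbxo11b, one of a pair for the F-box protein that degrades BCL6 in human cells, had 1861, 1570.2 and 1709 in eIF4E1b RIP, against 941 and 899.6 in eIF4E1c RIP, while its inputs held 2387, 2722 and 2573 in eIF4E1b embryos and 2826, 2632 and 2846 in eIF4E1c embryos. Both RIPs thus lay below the inputs, eIF4E1c RIP further, and its pair fbxo11a had a ratio difference of 1.25 ± 0.38 (adjusted p = 0.00851). The FBXW11 and fbxo11b calls were each lost without 6 of the 11 libraries, the FBXO25 call without 9, and all 3 with total counts as size factors and with edgeR. The FBXO25 call was also lost with TMM scaling (DESeq2 adjusted p = 0.00564) and with the replicate block (0.0118).

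Ubiquitin ligase partners outside the members had 54 identifiers. They covered RING subunits, ubiquitin-conjugating enzymes, other adaptors, neddylation enzymes, the COP9 signalosome and F-box genes under other symbols, such as KDM2B. Between the RIPs 52 were tested. In eIF4E1b RIP 1 was higher and 5 were lower, beside the 3.44% and 4.51% of all tested genes. The median log2 difference was -0.55 over the partners and -0.012 over all tested genes. DDB1, the adaptor that ties DCAFs to CUL4, had 161, 241 and 95.8 normalized counts in eIF4E1b RIP, against 1913 and 889 in eIF4E1c RIP, without overlap and with a log2 difference of -3.14 ± 0.53 (SE, DESeq2 adjusted p = 5.22e-07). The ubiquitin-conjugating enzyme genes UBE2D1 (-2.22 ± 0.47), cdc34b (-1.81 ± 0.45) and cdc34a (-1.62 ± 0.42), and UBE2M (-1.97 ± 0.46), which charges cullins with NEDD8, were lower as well, and the KDM2B identifier ENSDARG00000036593 was higher (1.92 ± 0.41). With edgeR the adjusted p-values of these 6 genes ran from 0.00723 to 0.0251. The inputs of ENSDARG00000036593 did not overlap either, at 787, 868 and 681 in eIF4E1b embryos against 241, 499 and 578 in eIF4E1c embryos. Their log2 difference was 0.83 ± 0.26 (DESeq2 adjusted p = 0.0297), and the ratio was not called (1.16 ± 0.49, 0.0762). The other KDM2B identifier, ENSDARG00000046010, had a RIP difference of -1.26 ± 0.59 (DESeq2 adjusted p = 0.118).

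Between the inputs none of the 52 tested partners was called, beside 0.890% of all tested genes called higher and 1.44% called lower in eIF4E1b input. Against input, 19 partners were higher and 14 lower in eIF4E1b RIP, beside 23.0% and 23.2% of all tested genes, and 18 were higher and 3 lower in eIF4E1c RIP, beside 17.2% and 16.8%. The ratio was higher for eIF4E1b in 2 partners, UBA3 (1.39 ± 0.34) and GPS1 (1.04 ± 0.27), beside 3.73% of all tested genes. It was higher for eIF4E1c in 6, beside 5.24% of all tested genes. These were DDB1, UBE2D1, cdc34b, DCUN1D1, cdc34a and UBE2M, at -2.74 to -1.70. None of these 8 ratio calls was made with edgeR, whose adjusted p-values ran from 0.00524 to 0.0358. The gene fbxo5 (Emi1), an APC/C inhibitor kept out of the members by the rule, had 110513, 143079 and 167781 normalized counts in eIF4E1b RIP, against 19465 and 25418 in eIF4E1c RIP, a log2 difference of 2.58 ± 0.39 (DESeq2 adjusted p = 1.03e-08, edgeR 0.0237).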

How the data were processed

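The authors sequenced RIP and input libraries of 8-cell zebrafish embryos and deposited whole-number read counts per Ensembl gene for each of the 11 libraries. The submitters' processing notes name Trim Galore 0.5.0, Bowtie2 2.3.4.1, Subread 1.6.2 with featureCounts, DESeq2 1.18.1, R 3.4.1 and the GRCz11 build, and the handling of strand and of reads with several matches was not given in the sources used here. The SMARTer Ultra Low kit was used for RIP, and the stranded SMARTer Ribo-Zero kit for input.

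Gene symbols were matched to 29201 of the 32520 identifiers. The deposited counts of all genes were tested with DESeq2 1.42.0 (R 4.3.3, Wald test, median-of-ratios size factors, unshrunken fold changes), and a gene was called at a Benjamini-Hochberg adjusted p under 0.005 over all genes tested. The comparisons were eIF4E1b RIP with eIF4E1c RIP, the inputs with each other, each RIP with its input, and the RIP to input ratios of the lines, as an interaction term in a fit of all 11 libraries. Alternatives were edgeR 4.0.16 (quasi-likelihood test), TMM and total count scaling, a filter of at least 10 counts in 2 libraries, an adjusted p under 0.05, a replicate block, and leaving out each library. The scripts were tested on simulated data.

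The labels call the libraries biological replicates, and the p-values rest on the spread between these libraries. The counts of replicates differed by more than sampling noise. The chi-square per degree of freedom was 57.36 to 151.5 between RIP replicates and 12.93 to 26.66 between input replicates. Where RIP and input were fitted together, 1 spread per gene was taken for both kinds. The p-values of those fits can therefore understate the spread of the RIP libraries. Same-numbered eIF4E1b RIP and eIF4E1b input libraries deviated together (correlations of 0.462, 0.287 and 0.489), so that the replicate block is a pairing there; it was run as an alternative, and the values given are those of the fit without it. The eIF4E1c line shares only 2 numbers (0.21 and 0.0723), too few to take as pairs. Between the RIPs, same-numbered libraries of the lines hardly deviated together (0.0698 and 0.0332), so the block is no pairing there. It also keeps eIF4E1b RIP replicate 3, alone in its number, out of the difference. The second eIF4E1c RIP library is replicate 2 by its title, which was followed. The name of its counts carries the number 3 (correlation of 0.21 with eIF4E1c input replicate 3), so the block is uncertain for that library. Total counts ran from 6943631 to 13993294, and a floor of 3 counts was used for a count of 0, covering counting error only. The members and lists were chosen with earlier results of these data known. Named genes were those called between the RIPs, between the inputs or in the ratio, the 5 in each direction with the smallest adjusted p in each RIP to input comparison, the 5 with the highest counts in eIF4E1b RIP, and a fixed list of 35 names, of which 27 matched. CUL1, ENSDARG00000100108, FZR1, DCAF10, DCAF11, DCAF12, DCAF13, fbxl13, and the genes marked so in the text were named after their values had been seen.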

Additional observations from a re-analysis of the deposited data

Results flagged for a closer look

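The change from input to RIP differed between the lines, by the interaction test over all 11 libraries (DESeq2 adjusted p under 0.005), in 8 of the 95 members tested. Of all 14194 tested genes, 3.73% had a higher ratio for eIF4E1b and 5.24% a higher ratio for eIF4E1c. The count of 8 is therefore not read as a trait of the members. The fit shared 1 spread per gene between RIP and the less variable inputs, so its p-values can be too small. The ratio was higher for eIF4E1b in DCAF5 (log2 difference 3.07), ANAPC7 (1.83), FBXO48 (1.58), FBXW11 (1.31), FBXO25 (1.19) and fbxo11b (1.01), and higher for eIF4E1c in DCAF15 (-4.02) and SKP1 (-1.38). DCAF5, DCAF15 and ANAPC7 were called with every library left out in turn and with edgeR, SKP1 and FBXO48 with every library left out but not with edgeR, and the other 3 were lost without 6 to 9 of the 11 libraries. In the fits without either eIF4E1c RIP library that group held 1 library and its spread was taken from the other groups, so that a call kept there is weak support. Without eIF4E1c RIP replicate 1, the library with the fewest genes, the log2 differences were 2.72 for DCAF5, 1.89 for ANAPC7, 1.77 for FBXO48 and 1.06 for FBXW11. They were 1.05 for FBXO25, 1.03 for fbxo11b, -3.39 for DCAF15 and -1.41 for SKP1. The part of that library in the calls was not tested otherwise.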

How the results depend on the processing

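Over all members tested between the RIPs, DESeq2 called 6, edgeR 0, the replicate block 3 and total count scaling 4, and an adjusted p under 0.05 gave 15. Of all 109 members, 30 had an unadjusted p under 0.05 with DESeq2 and 25 with edgeR. Leaving out an eIF4E1b RIP library gave 4 calls (replicate 1), 3 (replicate 2) or 2 (replicate 3). Between the inputs the 0 calls became 6 at an adjusted p under 0.05 and 0 to 2 without a library, 2 being without eIF4E1c input replicate 1. In the eIF4E1b line the 61 calls of RIP against input were 56 with edgeR, 68 with the replicate block and 48 to 69 without a library. In the eIF4E1c line the 37 calls were 17 with edgeR, 23 with the replicate block and 25 to 27 without an input library. The 8 calls of the ratio were 3 with edgeR, 18 at an adjusted p under 0.05 and 5 to 22 without a library, with 22 without eIF4E1c RIP replicate 2 and 11 without eIF4E1c RIP replicate 1. Total count scaling moved the median of all tested genes by -0.104 between the RIPs, -0.437 and -0.214 for RIP against input in the eIF4E1b and eIF4E1c lines and -0.243 in the ratio, and turned the split of calls to 23 higher and 33 lower in the eIF4E1b line. A single value turned round, that of fbxw11a for RIP against input in the eIF4E1c line. It was 0.15 (DESeq2 adjusted p = 0.862), with -1.28 without eIF4E1c RIP replicate 1 and 0.87 without replicate 2. Each of these 2 fits held 1 eIF4E1c RIP library, so the spread between RIP libraries is no part of them. The shares of all genes called under these alternatives were not counted, so the members' counts are not set against them. The cause of these changes was not tested. The block follows the titles' replicate numbers, of which that of the second eIF4E1c RIP library is uncertain. Between the RIPs it is no pairing, so its 3 calls there say little about how well the calls hold. With 2 eIF4E1c RIP libraries, differences that rest on that group had the least precision.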
